A study of Mus musculus with 8 samples.

Results

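The 10 genes described here belong to the hypoxia response and to glycolysis and were followed through exposure to bisphenol A (BPA): Vegfa, Ero1a, Ndrg1, Hk2, Pfkfb3, Pgk1, Ldha, Hif1a, Bnip3 and Pdk1. They were chosen by name, and every probe set annotated with exactly 1 of these symbols was used, which gave 24 probe sets of the 20380 with 1 symbol and 10 of the 12393 genes measured. All 10 genes and all 24 probe sets were above the filter on low signals. The cells were TTE3, an immortalised mouse testicular Sertoli cell line derived from mice with a transgene for the large T antigen of simian virus 40 in a form that works only at a permissive temperature. Sertoli cells are the somatic cells that nurse germ cells in the testis. BPA, a monomer of polycarbonate plastics, was given at 0.2 mM for 0, 3, 6 or 12 h, with 2 Affymetrix Mouse Expression 430A arrays per time and 8 in all. The 4 groups share the cell line and the transgene and differ by the time in BPA. Whether the 2 arrays at each time stem from different cultures is not in the labels, and all p-values here rest on the spread between such arrays, possibly a technical one only. Cells kept without BPA for 3, 6 or 12 h were not analysed here, so time in BPA and time in culture cannot be told apart. All comparisons with 0 h share the same 2 arrays at 0 h.

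As background, low oxygen stabilises the transcription factor subunit HIF-1 alpha, the product of Hif1a, which is otherwise marked by prolyl hydroxylases, bound by the VHL protein and degraded. With its partner ARNT it binds a short DNA core, the hypoxia response element (HRE), and raises genes of angiogenesis, of glucose uptake and of glycolysis. Several of these genes, among them Vegfa, Ero1a and Ndrg1, are also raised by stress of the endoplasmic reticulum (ER) or by amino acid shortage through the factor ATF4. Sertoli cells are known for turning glucose into lactate, which they pass to germ cells, so the glycolytic enzymes are part of their supporting role.

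The start regions are shown first, as a description of the letters near the starts of these genes. In the RefSeq promoter table of build GRCm38.p6, which runs from 250 bases before to 50 bases after a start, 9 of the 10 genes had an entry, 13 entries in all, and Ndrg1 was not matched. The HRE core was searched as ACGTG and as GCGTG on both strands. It was found in 11 of the 13 entries, against 43.8% of all 32851 promoters of this length in the table. Capitals mark these cores, and a core on the opposite strand reads CACGT or CACGC. The letters CACGTG, an E-box, hold the ACGTG core on both strands and count as 2 matches. Printed are Ero1a (chr14:45318523-45318822, minus strand), Hk2 (chr6:82774405-82774704, minus strand), Ldha (chr7:46845554-46845853, plus strand), Pgk1 (chrX:106186850-106187149, plus strand) and the upstream of both Vegfa starts (chr17:46032328-46032627, minus strand).
Ero1a: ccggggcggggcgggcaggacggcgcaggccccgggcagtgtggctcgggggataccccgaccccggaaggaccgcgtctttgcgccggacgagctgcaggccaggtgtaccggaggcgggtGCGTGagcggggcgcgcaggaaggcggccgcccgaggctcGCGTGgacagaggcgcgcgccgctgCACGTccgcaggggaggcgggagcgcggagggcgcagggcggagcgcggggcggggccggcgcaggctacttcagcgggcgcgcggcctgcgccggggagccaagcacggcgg
Hk2: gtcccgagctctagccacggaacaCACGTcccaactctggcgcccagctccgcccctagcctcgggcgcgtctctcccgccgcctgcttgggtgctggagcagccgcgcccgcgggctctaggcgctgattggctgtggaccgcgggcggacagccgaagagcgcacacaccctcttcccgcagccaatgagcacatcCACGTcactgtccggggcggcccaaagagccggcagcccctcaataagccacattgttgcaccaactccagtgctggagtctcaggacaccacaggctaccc
Ldha: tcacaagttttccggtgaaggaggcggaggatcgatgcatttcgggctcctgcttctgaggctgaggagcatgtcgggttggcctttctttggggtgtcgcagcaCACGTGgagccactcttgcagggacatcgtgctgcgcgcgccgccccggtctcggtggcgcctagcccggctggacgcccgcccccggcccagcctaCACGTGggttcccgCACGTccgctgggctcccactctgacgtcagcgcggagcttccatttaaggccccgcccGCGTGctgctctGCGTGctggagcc
Pgk1: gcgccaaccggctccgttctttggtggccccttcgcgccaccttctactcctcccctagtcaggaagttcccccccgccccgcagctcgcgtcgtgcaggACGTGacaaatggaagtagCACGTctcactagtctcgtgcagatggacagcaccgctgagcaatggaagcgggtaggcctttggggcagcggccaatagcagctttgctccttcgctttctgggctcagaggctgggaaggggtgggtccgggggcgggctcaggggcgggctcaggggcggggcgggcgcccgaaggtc
Vegfa: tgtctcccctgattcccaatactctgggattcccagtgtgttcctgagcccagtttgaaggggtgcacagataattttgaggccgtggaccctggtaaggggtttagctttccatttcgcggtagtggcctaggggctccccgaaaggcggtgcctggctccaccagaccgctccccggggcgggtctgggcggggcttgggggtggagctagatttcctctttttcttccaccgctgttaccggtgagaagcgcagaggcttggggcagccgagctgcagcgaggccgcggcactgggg
The Ldha region held 7 matches, of which 2 pairs lie in E-boxes. The Ero1a region held 3 matches, and the Hk2 and Pgk1 regions 2 each. The printed Vegfa window held none of these letters. The other Vegfa entry, at a start further downstream within the gene, held 2. The amino acid response core TGATGNAA was in none of the 13 entries, against 3.97% of all promoters, and the ER stress element (ERSE, with CCAAT and CCACG at a fixed distance) was in none either, against 0.119%. A match is a description of these windows, and the lack of a match says nothing of regulation from elsewhere. Whether the matches bear on the changes below was not tested.

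All signals given are those the authors deposited for each probe set, unlogged. Changes are differences of log2(signal + 7.9) between the means of 2 arrays, with the standard error from limma, and a gene was called at a Benjamini-Hochberg adjusted p under 0.05 over the 8675 genes tested. A gene is read through the brightest of its probe sets on average, unless another is mentioned. Depth cannot be given for arrays, and their number limits the precision. Median signals per array were between 150.9 and 170.0, and the ratio of 3' to 5' signal was between 0.713 and 0.82 for the Gapdh controls and between 1.11 and 1.19 for the actin controls. Of 13 Sertoli markers on the array 9 were above the filter. Kitl, Gata4 and Clu were well above it, while Amh, Fshr, Cldn11 and Dhh were below it. The summed Sertoli marker signal lay between 10699.6 and 11023.3 at 0 h and between 6138.8 and 10604.7 later, and most of that sum is Clu. Of the markers of Leydig cells 1 of 4 was above the filter (Star, 266.9 to 490.6) and of germ cells 1 of 6 (Prm1, 30.5 to 75.5). Of those of peritubular cells 2 of 4 were (Acta2, 24 to 233.6, and Des, 64.2 to 138.4). Below it were Cyp11a1, Cyp17a1 and Hsd3b1 of Leydig, Ddx4, Dazl, Prm2, Tnp1 and Sycp3 of germ, and Myh11 and Cnn1 of peritubular cells. The summed signals of all Leydig markers were 470 to 470.5 at 0 h and 345.4 to 551.7 later. The sums were 128.6 to 146.5 and 156.9 to 213.5 for germ and 199.5 to 233.8 and 181.8 to 372.1 for peritubular markers. The part of these shifts in the results below was not tested.

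The mean signals of Vegfa, Ero1a and Ndrg1 were higher at each time than at the one before, though only Ndrg1 had every step called. Hk2 and Pfkfb3 were higher than at 0 h from 3 h on, and Hk2 fell again from 6 to 12 h. Ldha fell, and Pgk1, Hif1a, Bnip3 and Pdk1 were not called at any time against 0 h. At 3 h 4 of the 10 genes rose and none fell, where 12.1% of all genes tested were called, 8.55% higher and 3.53% lower. At 6 h 5 rose and 1 fell, against 26.5% of all genes called, 16.8% higher and 9.73% lower. At 12 h 5 rose and 1 fell again, against 38.4% of all genes, 20.9% higher and 17.5% lower. The median change of the 10 genes was 0.17, 0.70 and 0.43 at 3, 6 and 12 h, against 0.06, 0.07 and 0.06 over all genes tested. By probe set, 8 of 24 were higher and none lower at 3 h, where 8.78% of all 15838 probe sets tested were called, 5.91% higher and 2.87% lower. At 6 h 13 were higher and 2 lower, against 21.8% called, 13% higher and 8.84% lower. At 12 h 13 were higher and 3 lower, against 33.4% called, 17% higher and 16.4% lower. Of the 24 probe sets 5 belong to Ndrg1, 3 to Ero1a and 2 to Vegfa, so these counts repeat genes and are not counts of separate members. With arrays scaled to the same median the median change of all genes became -0.07 at 3 h and -0.04 at 6 h, and Ldha was then called lower at 3 h (limma adjusted p = 0.029), which made the split 4 higher and 1 lower. In such bulk samples fewer cells with a transcript and less of it per cell cannot be told apart.

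**Figure D1:**
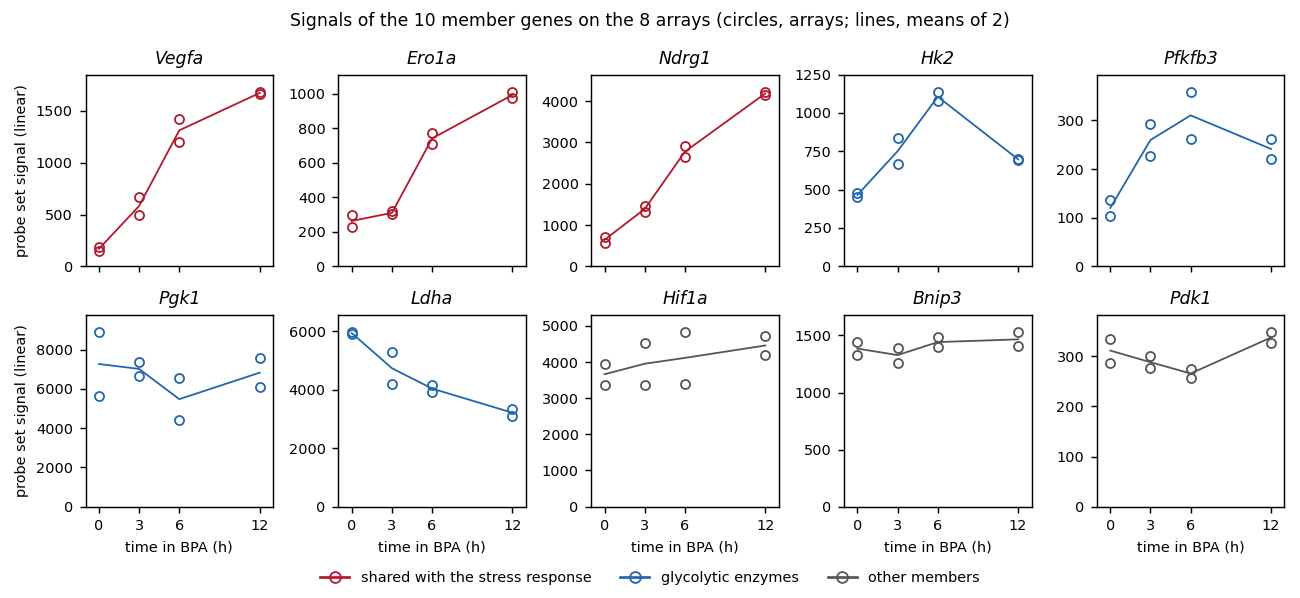
Probe set signal (linear scale, authors' units) of each of the 10 genes against hours in BPA, with 1 circle per array and lines through the means of 2 arrays. Vegfa, Ero1a and Ndrg1 are highest at 12 h, Hk2 is highest at 6 h, and Ldha falls from 5940 to 3214. Pfkfb3 is above 0 h at every later time, with its highest mean at 6 h and arrays that overlap those at 3 h.

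Vegfa encodes the main growth factor for blood vessels. Its signal was 151.7 and 185.1 at 0 h, 670 and 494.3 at 3 h, 1420.8 and 1204.4 at 6 h, and 1683.6 and 1665.1 at 12 h. Both arrays of every later time lay above both arrays at 0 h, and the 4 times did not overlap one another. The mean rose 3.46-fold by 3 h, 7.79-fold by 6 h and 9.94-fold by 12 h. On the log2 scale the change at 12 h was 3.26 ± 0.16 (SE, n = 2 per time, limma adjusted p = 1.46e-08), which ranked 11 among the 8675 genes tested. The step from 3 to 6 h was called (1.17 ± 0.16, limma adjusted p = 0.0033) and that from 6 to 12 h was not (0.35 ± 0.16, limma adjusted p = 0.244). The other Vegfa probe set rose by 1.29 ± 0.18, 2.36 ± 0.18 and 2.56 ± 0.18 at the 3 times. Its arrays at 6 h (970.6 and 1271) and at 12 h (1293.2 and 1265.2) did overlap.

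Ero1a encodes an ER oxidase that passes electrons from newly folding proteins to oxygen. Its signal was 225.8 and 300.3 at 0 h, 301.1 and 318.9 at 3 h, 775 and 708.8 at 6 h, and 976.9 and 1011.1 at 12 h. At 3 h both arrays were barely above the higher array at 0 h, and the change was 0.24 ± 0.15 (limma adjusted p = 0.354). By 6 h the mean was 2.82-fold and by 12 h 3.78-fold that at 0 h, changes of 1.48 ± 0.15 and 1.90 ± 0.15 (limma adjusted p = 1.69e-05 and 1.19e-06). Of the 8675 genes, 19 had a larger step up from 3 to 6 h than Ero1a, whose step was 1.24 ± 0.15 (limma adjusted p = 0.00163). The 3 Ero1a probe sets were alike in the delay: none was called at 3 h, with changes of 0.20, 0.46 and 0.24, 1 of them at an unadjusted p under 0.05. They rose by 1.20, 1.46 and 1.48 at 6 h and by 2.23, 2.18 and 1.90 at 12 h.

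Ndrg1 encodes a cytoplasmic protein induced by hypoxia, metals and ER stress and linked to growth arrest and differentiation. Its signal was 721.7 and 563.4 at 0 h, 1325.6 and 1453 at 3 h, 2909.7 and 2642.9 at 6 h, and 4151.3 and 4221 at 12 h. No 2 times overlapped, and each later time was above the one before. The mean rose 2.16-fold, 4.32-fold and 6.51-fold at 3, 6 and 12 h, and the change at 12 h was 2.70 ± 0.13 (limma adjusted p = 1.12e-08). Both steps were called, 0.99 ± 0.13 from 3 to 6 h and 0.59 ± 0.13 from 6 to 12 h (limma adjusted p = 0.00217 and 0.02). Its 5 probe sets all rose at 6 h, by 1.29 to 2.11, and at 12 h, by 1.96 to 2.70, while 3 of the 5 were called at 3 h. The probe set that represents the gene ends in _s_at, so it may bind other transcripts too.

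Hk2 encodes hexokinase 2, which traps glucose in the cell as glucose 6-phosphate. Its signal was 449.8 and 481 at 0 h, 665.2 and 836.5 at 3 h, 1137 and 1075 at 6 h, and 701.4 and 693.6 at 12 h. The 6 h arrays stood above all others, and the 12 h arrays had dropped back to the range of the 3 h arrays, still above 0 h. The changes against 0 h were 0.67 ± 0.14, 1.24 ± 0.14 and 0.58 ± 0.14 (limma adjusted p = 0.00598, 2.75e-05 and 0.00437). From 6 to 12 h Hk2 fell by 0.66 ± 0.14 (limma adjusted p = 0.0149), while the rise from 3 to 6 h was 0.56 ± 0.14 and not called (limma adjusted p = 0.073). Leaving out replicate 1 at 0 h or replicate 2 at 3 h ended the call at 3 h (limma adjusted p = 0.0667 and 0.0798). The fall from 6 h was not called without the intensity trend, without replicate 1 at 6 h or without either 12 h array (limma adjusted p = 0.0815, 0.0634, 0.0749 and 0.0588).

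Pfkfb3 encodes the enzyme that makes fructose 2,6-bisphosphate, the main activator of phosphofructokinase. Its signal was 102.8 and 137.2 at 0 h, 226.5 and 293 at 3 h, 262.4 and 358.6 at 6 h, and 220.8 and 261.9 at 12 h. All 6 later arrays were above both arrays at 0 h, and the later times overlapped in part. The changes were 1.07 ± 0.23, 1.31 ± 0.23 and 0.97 ± 0.23 (limma adjusted p = 0.00801, 0.000916 and 0.00406), and neither step between later times was called. As for Hk2, the call at 3 h ended when replicate 1 at 0 h or replicate 2 at 3 h was left out (limma adjusted p = 0.0882 and 0.0839). The other probe set gave smaller changes of 0.69, 0.68 and 0.48, the last not called in the fit of all probe sets (limma adjusted p = 0.0731).

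Ldha encodes the A subunit of lactate dehydrogenase, which turns pyruvate into lactate. Its signal was 5910.8 and 5968.7 at 0 h, 5279.5 and 4196.7 at 3 h, 4165.7 and 3917.8 at 6 h, and 3337.8 and 3089.4 at 12 h. The arrays of each time lay below those of the time before. The mean at 12 h was 1.85-fold lower than at 0 h. Ldha fell by 0.56 ± 0.12 at 6 h and by 0.89 ± 0.12 at 12 h (limma adjusted p = 0.00423 and 8.29e-05), and its change at 3 h was -0.34 ± 0.12 (limma adjusted p = 0.0912). Neither later step was called on its own.

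Pgk1 encodes phosphoglycerate kinase 1, the first ATP-forming enzyme of glycolysis, and its 3 probe sets differed. The brightest, of the _x_at kind that may bind related transcripts, read 5649.4 and 8876.4 at 0 h and 7558.1 and 6081.5 at 12 h. Its 0 h arrays were so far apart that every later array but 1 fell between them, and its change at 12 h was -0.06 ± 0.21 (limma adjusted p = 0.842). The second, of the plain _at kind, read 7390.4 and 6187 at 0 h and 4886.4 and 5351.7 at 12 h, without overlap, and was called lower at 12 h (-0.40 ± 0.13, limma adjusted p = 0.0269). The third, also _x_at, fell from 1039.3 and 1070.5 at 0 h to 698.2 and 780.4 at 6 h and 704.2 and 764 at 12 h (-0.51 ± 0.13 and -0.52 ± 0.13, limma adjusted p = 0.0145 and 0.00836). Taken as the mean of its probe sets, Pgk1 was called lower at 6 and 12 h, by -0.39 and -0.33 (limma adjusted p = 0.014 and 0.0242). The brightest probe set was also called lower at 6 h with replicate 1 at 0 h left out (-0.72) and with replicate 2 at 6 h left out (-0.68; limma adjusted p = 0.0394 and 0.0332).

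**Figure D2:**
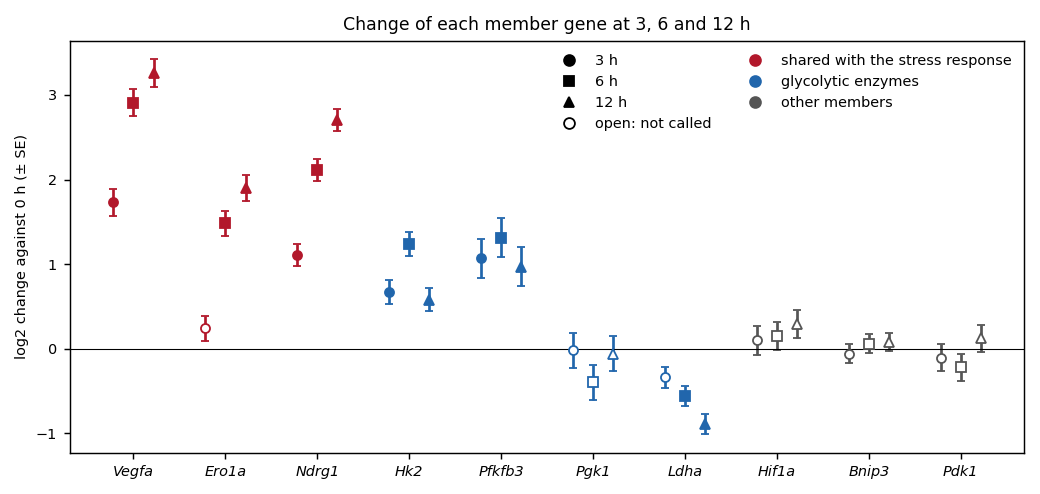
Log2 change against 0 h (± SE, n = 2 arrays per time) of the 10 genes at 3, 6 and 12 h, filled where called at a limma adjusted p under 0.05. Changes at 12 h run from -0.89 for Ldha to 3.26 for Vegfa.

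Set side by side, the 3 genes shared with the stress response had a median change of 1.11, 2.11 and 2.70 at 3, 6 and 12 h. The 4 genes of glycolytic enzymes (Hk2, Pfkfb3, Pgk1 and Ldha) had medians of 0.33, 0.42 and 0.26. At 12 h the former ranged from 1.90 to 3.26 and the latter from -0.89 to 0.97, so the groups did not overlap. At 3 h they did, since Ero1a at 0.24 was below Hk2 and Pfkfb3. The gap between the medians was 0.78, 1.69 and 2.44. It is a description, with no test, since the genes were chosen with results of these data known. The gap moved with the 0 h arrays at each of the 3 times. Without replicate 1 at 0 h it was 1.15, 2.01 and 2.81 at 3, 6 and 12 h, and without replicate 2 at 0 h 0.42, 1.33 and 2.08. The glycolytic genes were not 1 group in their changes, as the regulatory enzymes Hk2 and Pfkfb3 rose while Ldha fell.

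Hif1a itself was not called. Its signal was 3372 and 3954.3 at 0 h, 3365.9 and 4541.3 at 3 h, 3407 and 4824 at 6 h, and 4198.7 and 4718.9 at 12 h. The 2 arrays of a time differed by more than the means of the times did at 3 and 6 h, and at 12 h both arrays were above both at 0 h. The change at 12 h was 0.29 ± 0.17 (limma adjusted p = 0.213). Among the other 3 probe sets, the second brightest rose from 1036.7 and 872.3 to 1390.6 and 1436.8 at 12 h (0.57 ± 0.14, limma adjusted p = 0.00813 in the fit of all probe sets). The next had a change of 0.12 ± 0.15 at 12 h, and the dimmest, with signals of 20.2 to 68.2, one of -0.12 ± 0.51. HIF-1 alpha is controlled mostly as a protein, which these arrays do not measure.

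Bnip3, which encodes a mitochondrial protein of mitophagy and cell death, read 1330 and 1439.3 at 0 h and 1405.1 and 1527.9 at 12 h. All 8 arrays lay between 1260.7 and 1527.9, and its change at 12 h was 0.08 ± 0.11 (limma adjusted p = 0.614). Pdk1, the kinase that shuts pyruvate dehydrogenase, read 335.6 and 287.8 at 0 h, 300.7 and 276.4 at 3 h, 274.7 and 257.1 at 6 h, and 348.2 and 327.5 at 12 h. Its 6 h arrays were the lowest, without overlap with 0 h, but the change was -0.22 ± 0.16 (limma adjusted p = 0.355) and that at 12 h 0.12 ± 0.16 (limma adjusted p = 0.612). The second Pdk1 probe set varied from 133.4 to 279.5 between the 12 h arrays alone. Both genes are commonly used as HIF targets.

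**Figure D3:**
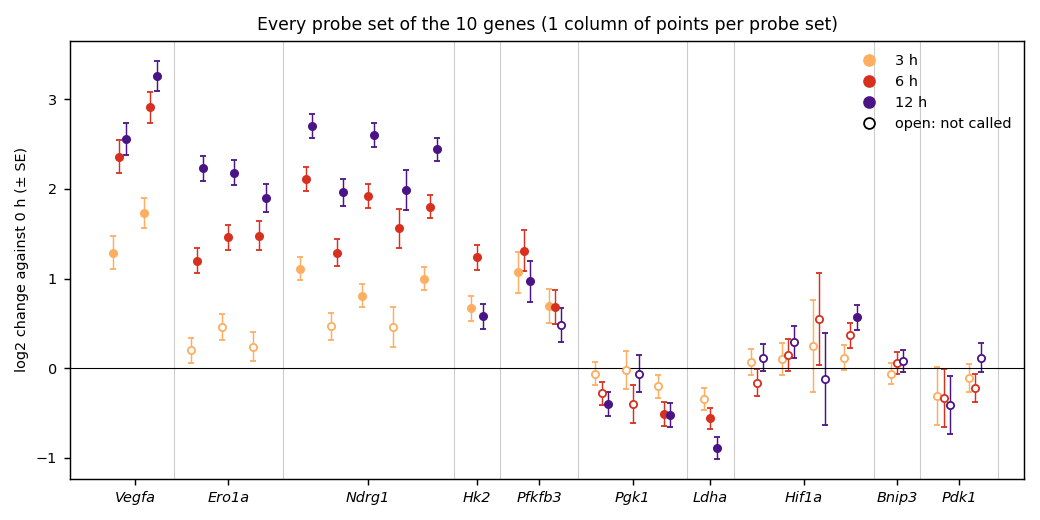
Log2 change against 0 h (± SE, n = 2 arrays per time) of all 24 probe sets of the 10 genes, with colours for the times and filled points where called over all 15838 probe sets tested. Each Vegfa, Ero1a and Ndrg1 probe set rose at 6 and 12 h, while those of Pgk1 and Hif1a differed among themselves.

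Between the later times, 3 of the 10 genes rose from 3 to 6 h, Vegfa, Ero1a and Ndrg1, where 1.12% of all genes were called, 0.565% higher and 0.553% lower. From 6 to 12 h 1 rose and 1 fell, Ndrg1 and Hk2, where 4.77% of all genes were called, 0.922% higher and 3.85% lower. By probe set 10 of 24 were higher and none lower from 3 to 6 h, against 0.972% of all probe sets called, 0.492% higher and 0.48% lower. These 10 are all the probe sets of Vegfa, Ero1a and Ndrg1, so they repeat the same 3 genes. From 6 to 12 h 6 were higher, all of Ero1a or Ndrg1, and 1 lower, that of Hk2. Over all probe sets 2.97% were called, 0.568% higher and 2.41% lower. The step of Ero1a from 6 to 12 h was 0.42 for its brightest probe set and 1.04 and 0.72 for the others, and its mean over probe sets was called (0.73, limma adjusted p = 0.00698). None of the calls between later times held without the intensity trend in the variance (limma adjusted p = 0.087 for Vegfa, 0.0664 for Ero1a and 0.087 for Ndrg1 from 3 to 6 h, and 0.118 for Ndrg1 from 6 to 12 h). The rise of Ndrg1 after 6 h also failed the threshold when replicate 2 at 6 h or either 12 h array was left out (limma adjusted p = 0.0682, 0.0921 and 0.0744).

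The genes whose log2 signals over the 8 arrays were most like each member were taken from about 1378 tested genes whose time means spanned at least 1 log2 unit. For Vegfa they were the DNA repair nuclease gene Ercc5 (Pearson r = 0.993), Srfbp1 (0.992) and the polo-like kinase gene Plk3 (0.992). For Ero1a they were the cystine transporter gene Slc7a11 (0.984), Fam241b (0.983) and the asparagine synthetase gene Asns (0.983). For Ndrg1 they were Abhd1, the pseudokinase gene Trib3 and the mRNA capping enzyme gene Rngtt, each at 0.995. Hk2 was most like Hmgcs1, an enzyme of sterol synthesis (0.968), the phosphatidate phosphatase gene Lpin1 (0.959) and Tmem266 (0.954). Ldha was most like Plec (0.987), Tcf19 (0.986) and S100a1 (0.983), which had changes of -1.51, -1.13 and -1.73 at 12 h. For Hif1a they were Rbm26 (0.823), Zfp37 (0.766) and Slc9a8 (0.755), the lowest values of the 6 members searched. All of these values describe 8 points that share arrays, scaling and the order of times, and carry no test.

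Of 13 tested genes of the machinery that controls HIF, 4 were higher and 3 lower at 12 h. Over all genes 20.9% were higher and 17.5% lower, and for 13 genes the counts were not far from these shares. The median change was 0.12 against 0.06 over all genes. Siah2, a ubiquitin ligase that acts on prolyl hydroxylases, rose from a signal of 129.7 ± 24.3 (SD, n = 2 arrays, as for the other genes below) to 827.6 ± 88.7 at 12 h (2.61 ± 0.18, limma adjusted p = 2.69e-07), or by 1.47 as the mean of its probe sets. Arnt, the partner of HIF-1 alpha, rose from 323.6 ± 14.2 to 846.8 ± 62.9 (1.37 ± 0.14, or 0.79 as the mean of its probe sets). Cited2, which competes with HIF for its coactivators, rose by 1.21 at 3 h and by 0.71 at 12 h. Egln1, the main HIF prolyl hydroxylase and itself a HIF target, fell from 647.2 ± 82.5 to 288.4 ± 12.6 (-1.14 ± 0.16, limma adjusted p = 8.87e-05). The coactivator gene Crebbp and the elongin B gene Elob had changes of -1.01 and -0.51, both called. Vhl, Egln2 and Epas1 were not called at 12 h (0.12, -0.13 and 0.69). The fourth higher gene, Cul2 (0.34), lost its call under other scalings, without the intensity trend and as the mean of its probe sets (0.26). It also lost it without any 1 of the 4 arrays.

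Among other known HIF targets 7 of 27 tested were higher and 3 lower at 12 h, with a median of 0.06. Both the count and the median were near those over all genes, of which 38.4% were called, 20.9% higher and 17.5% lower, with a median of 0.06. Maff, a small MAF factor, rose by 2.72 ± 0.14, and Hmox1, the heme oxygenase gene, by 2.53 ± 0.18, from 381.2 ± 32.3 to 2240 ± 89.2. Stc2, a secreted glycoprotein gene, rose by 2.07 ± 0.21 (1.20 as the mean of its probe sets), Angptl4 by 1.43 ± 0.27 and Ddit4 by 1.22 ± 0.12. Ddit4, an inhibitor of mTORC1, had changes of 2.10, 1.98 and 1.22 at the 3 times. Bhlhe40, a transcriptional repressor gene of the clock and of hypoxia, had changes of 2.30, 2.30 and 0.96. Edn1, the endothelin 1 gene, was lower at 12 h (from 185.3 ± 34.5 to 64.3 ± 64.1, a change of -1.77 ± 0.47, limma adjusted p = 0.00935), a call lost with replicate 2 at 0 h left out (limma adjusted p = 0.075) or without the intensity trend (0.0584). Its value was -0.71 without replicate 1 and -2.83 without replicate 2 at 12 h. Plod2, a collagen lysyl hydroxylase gene, had a change of -1.08 ± 0.17 (-0.67 as the mean of its probe sets). P4ha1, a collagen prolyl hydroxylase gene, rose by 0.63 ± 0.14 (limma adjusted p = 0.00244). The carbonic anhydrase gene Car12 was lower (-0.86 ± 0.27, limma adjusted p = 0.0225). Its call needed the filter, replicate 2 at 0 h and replicate 1 at 12 h. The other 17 targets tested were not called at 12 h, with changes from -0.55 (Gys1) to 0.46 (Kdm4b). Some of them were called higher earlier: Kdm3a at 3 h (0.51), Insig2 at 3 and 6 h (0.46 and 0.65) and Vldlr at 6 h (0.43). Of these earlier calls only that of Insig2 at 6 h held under every alternative tried. Car9 and Adm were below the filter.

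Of the other genes of glucose uptake and glycolysis 3 of 17 tested were higher and 5 lower at 12 h, against 20.9% and 17.5% of all genes, with a median of -0.07. Pgam1, phosphoglycerate mutase, fell from 3865 ± 100.8 at 0 h to 1894 ± 50.6 at 6 h and 1603 ± 15.9 at 12 h (SD, n = 2 arrays; -1.27 ± 0.10 at 12 h, limma adjusted p = 1.03e-06). Its call at 12 h was the only one of the 8 that held under every alternative tried. Tpi1, triose phosphate isomerase, had a change of -0.54 ± 0.11 at 6 h (limma adjusted p = 0.00335) and -0.40 ± 0.11 at 12 h. The latter call was lost without the intensity trend, and without either 0 h array or replicate 1 at 12 h. Aldoc and Bpgm were lower at 12 h (-0.46 and -0.65), with calls lost without replicate 1 at 12 h. The call of Aldoc was also lost without replicate 2 at 0 h, and that of Bpgm without replicate 1 at 0 h or without the filter. The phosphofructokinase genes Pfkl (-0.40) and Pfkp (0.65) and the relative of Pfkfb3, Pfkfb2 (1.42), were each called, but no longer as the mean of their probe sets (-0.28, 0.18 and 0.50). The same held for Aldoc, at -0.10 as the mean of its probe sets (limma adjusted p = 0.773). Leaving out single arrays also ended calls: Pfkl without either 0 h array or replicate 2 at 12 h, and Pfkp without any 1 of the 4. Pfkfb2 lost its call if replicate 2 at 0 h or replicate 1 at 12 h was left out. Pfkl was not called without the trend, nor Pfkp without the filter. The lactate transporter gene Slc16a1 was higher at 6 h (0.46 ± 0.10, limma adjusted p = 0.00471), a call that held under every alternative tried. Its change at 12 h was 0.27, a call lost without any 1 of the 4 arrays. The glucose transporter gene Slc2a1, with 703.2 ± 49.2 at 0 h and 700.0 ± 4.596 at 12 h, and Hk1, Aldoa and Pkm were not called (0.00, -0.07, -0.04 and -0.24).

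At the pyruvate gate, the step between glycolysis and the mitochondrion, none of 8 tested genes was called at 12 h by limma. Over all genes 38.4% were called at that time. None of the 8 had an unadjusted p under 0.05. Their changes lay between -0.26 and 0.22, Pdk2 and Pdk3, further kinases of pyruvate dehydrogenase, among them at -0.12 and -0.16. At 6 h 1 of the 8 was called, against 26.5% of all genes. It was the pyruvate carrier gene Mpc1 (-0.37 ± 0.13, limma adjusted p = 0.0445). Its call was lost with quantile normalization of the arrays, without the filter, without the trend and with the 2 times alone. It also needed both 0 h arrays and replicate 1 at 6 h. Among the VEGF family and its receptors, 1 of 8 tested genes was higher and 3 were lower at 12 h, against 20.9% and 17.5% of all genes, with a median of -0.34. The coreceptor gene Nrp1 fell from 1101 ± 88.9 to 328.8 ± 33.1 (-1.72 ± 0.14, limma adjusted p = 1.35e-06; -1.36 as the mean of its probe sets), and Nrp2 by -0.86 ± 0.19 (limma adjusted p = 0.00308). Flt1, the gene of VEGF receptor 1, was higher (1.98 ± 0.47) from a signal of only 23.2 ± 0.919, a call lost without replicate 2 at 12 h (1.23, limma adjusted p = 0.0812). Flt4 was lower by 0.56, a call lost without the filter, as the mean of its probe sets, and without either 0 h array or replicate 1 at 12 h. The ligand genes Vegfb and Vegfc were not called (-0.13 and 0.12). Of 6 tested genes related to the 10 by family or by name, 1 was higher and 1 lower at 12 h, against 20.9% and 17.5% of all genes. They were the SNARE gene Bnip1 (0.76) and Ndrg4 (-0.41). Both calls were lost without either 0 h array, and without replicate 1 or replicate 2 at 12 h, respectively.

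**Figure D4:**
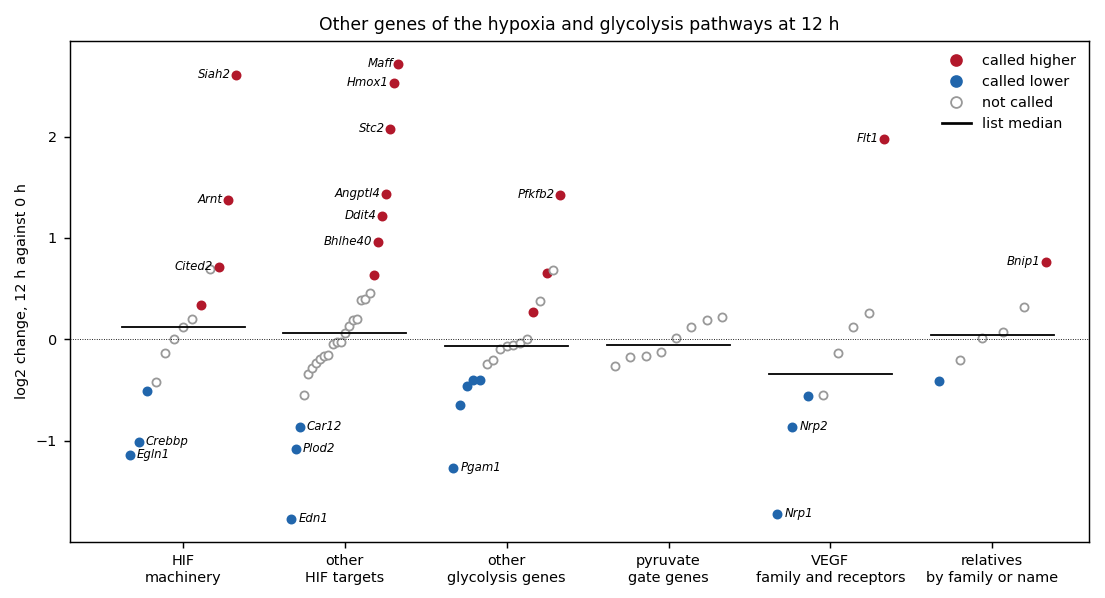
Log2 change at 12 h against 0 h of the tested genes of 6 lists (points, 1 per gene; lines, list medians), coloured where called at a limma adjusted p under 0.05. Medians lie between -0.34 and 0.12, and each list but the pyruvate gate holds genes called in both directions.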

How the data were processed

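RNA of TTE3 cells was measured on 8 arrays, 2 at each of 4 times in BPA, grouped by their titles. The deposited values are 1 linear intensity per probe set and array, made by the authors. Which software summarised the probes is not stated in the sources used here. Per the values, the authors had scaled each array to the same mean: without the top and bottom 2% of probe sets it was between 500.16 and 500.18. Such scaling hides a general rise or fall of RNA. Of 22690 probe sets 64 controls were left out. Symbols came from the platform annotation and were updated through Entrez identifiers to the RefSeq table of GRCm38.p6. The gene fit used log2(intensity + 7.9), with an offset at the 10th percentile of the signals, and kept the 8675 of 12393 genes above the 30th percentile of mean signal. A model with 1 mean per time was fitted with limma 3.58.1 in R 4.3.3 (eBayes with an intensity trend, 4 residual and 9 prior degrees of freedom, two-sided). The probe set fit did the same for 15838 probe sets. The fit was tested on simulated data. Named were all 10 genes, up to 6 called genes of each list with the largest change at the time with most calls, and the 3 closest genes in pattern of 6 members. Further list genes were named after their values were seen. The 10 genes, the lists and the tests were chosen with earlier results of these data known. Alternatives were other scalings, offsets and filters, no trend, the 2 times alone, a replicate block, means over probe sets and leaving out each array.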

Additional observations from a re-analysis of the deposited data

How the results depend on the processing

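The number of the 10 genes called against 0 h kept to 4 or 5 at 3 h, 6 or 7 at 6 h and 6 or 7 at 12 h under the scalings, offsets, filters, eBayes without the trend, the 2 times alone, the replicate block and the mean of probe sets. Leaving out 1 array gave 2 to 4 at 3 h, 6 to 7 at 6 h, 6 to 6 at 12 h, 3 to 3 from 3 to 6 h and 0 to 1 from 6 to 12 h, where limma on 8 arrays called 2. Without the intensity trend limma called 0 from 3 to 6 h and 0 from 6 to 12 h, with 4 and 4 at an unadjusted p under 0.05. Where leaving out a 12 h array left 0, 4 and 2 genes had such a p. A time with 1 array left is assumed to vary like the others. The gap between the medians of the stress-shared and the glycolytic genes was 0.48, 1.43 and 2.21 at 3, 6 and 12 h with the mean of all probe sets, and 0.42 to 1.15, 1.33 to 2.01 and 2.08 to 2.81 on leaving out 1 array. With the replicate number as a block Ldha at 3 h, Hif1a at 12 h and Hk2 from 3 to 6 h (limma adjusted p = 0.038) were also called, and 5, 6 and 7 of the 10 genes were called at 3, 6 and 12 h. Deviations of same-numbered arrays correlated at -0.01 to 0.12 between times, so the arrays share a number and no pairing is shown. The block moved the count of all genes from 97 to 226 for 3 to 6 h and from 414 to 703 for 6 to 12 h. The count of all genes at 3 h was 1048, 611 without the trend and 453 to 551 on leaving out 1 array. At 6 h it was 2299, and 1377 and 1379 without replicate 1 or 2 at 0 h. From 3 to 6 h it was between 6, without the trend, and 226, and from 6 to 12 h between 114, without the trend, and 703. The change of Aldoc at 3 h, -0.60, became 0.13 as the mean of its probe sets. The cause of these differences was not tested. The signal of Flt1 at 0 h was below the median signal of every array, which limits its fold.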
